A study of Arabidopsis thaliana with 12 samples.

Results

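The genes described here are *NRT2.5* (AT1G12940), *NPF6.4* (AT3G21670), *NPF5.7* (AT3G53960) and *HRS1* (AT1G13300), the nitrate transporter family members and the nitrate-responsive regulator named in the deposited tables of *Arabidopsis thaliana*. They were taken by gene name from a table of 608 genes listed for leaf and a table of 65 genes listed for root, which together held 656 different genes, so they are 4 of 656. *NRT2.5*, *NPF6.4* and *HRS1* were listed for leaf and *NPF5.7* for root. Both tables gave the level of a listed gene in all 12 libraries, so each of the 4 genes could be followed in both organs. A gene was listed only where the authors had called it between spaceflight and ground control in that organ, so a difference in the listed organ had already chosen the gene and is a description.

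The plants were wild-type seedlings of the WS ecotype, 11 days old, grown on plates in Veggie plant growth hardware with the LED light kept on. Spaceflight leaf and spaceflight root came from plants grown on the International Space Station, and ground control leaf and ground control root from plants grown in a matching unit in an environmental chamber on the ground. Each group had 3 libraries, from 3 plates, with 3 plants of a plate pooled for RNA, so the spread between libraries is a spread between plates and not between single plants. Per the study's methods, leaf and root libraries of a condition came from the same plates, 6 in all. Comparisons across organs treated them as independent. All plants were fixed in RNAlater, and leaves and roots were dissected with the hypocotyl removed. The labels and the study's methods differ on whether whole roots or root tips were extracted, and root values are given with that doubt.

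Nitrate enters plant cells through membrane transporters of several families. NRT2 proteins are high-affinity carriers that work at low external nitrate, and most need the small partner protein NRT3.1 (NAR2.1) to reach the membrane. NRT2.5 is known from nitrogen-starved *Arabidopsis*, in the outer cells of roots and in the minor veins of leaves. NPF proteins form a large family of nitrate, peptide and hormone transporters, and NPF6.4 (also NRT1.3) belongs to the same subfamily as NPF6.3 (NRT1.1), the dual-affinity nitrate transporter and sensor. HRS1 is a GARP-type transcription factor that is induced by nitrate, limits primary root growth when phosphate is low and nitrate is present, and with its HHO homologues represses *NRT2* genes.

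In the reference genome TAIR10.1, *NRT2.5* lies on chromosome 1 at 4416315 to 4418590 on the plus strand, with 3 exons. *HRS1* lies on the same chromosome and strand at 4556878 to 4558793, with 5 exons, and the gap between both genes is 138.3 kb. *NPF6.4* lies on chromosome 3 at 7626757 to 7629205 and *NPF5.7* on chromosome 3 at 19978122 to 19981086, both on the minus strand with 4 exons. No other annotated gene overlapped any of the 4, so reads of an overlapping gene could not be counted for them. The sequences upstream of *NRT2.5* and *HRS1* are shown because HRS1 and its homologues are known to bind GAATC and GAATATTC and to act on *NRT2* genes. They are the 250 bases that end at the base before the annotated transcript start, written from 5′ to 3′ on the strand of the gene, with matches to either motif on either strand in capitals (GATTC is GAATC on the other strand).
NRT2.5 (chr1:4416065-4416314, plus strand): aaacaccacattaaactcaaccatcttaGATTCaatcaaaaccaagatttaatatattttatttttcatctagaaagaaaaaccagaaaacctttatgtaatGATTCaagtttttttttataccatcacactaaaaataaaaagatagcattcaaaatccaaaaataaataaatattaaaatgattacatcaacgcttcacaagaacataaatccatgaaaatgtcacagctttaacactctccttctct
HRS1 (chr1:4556628-4556877, plus strand): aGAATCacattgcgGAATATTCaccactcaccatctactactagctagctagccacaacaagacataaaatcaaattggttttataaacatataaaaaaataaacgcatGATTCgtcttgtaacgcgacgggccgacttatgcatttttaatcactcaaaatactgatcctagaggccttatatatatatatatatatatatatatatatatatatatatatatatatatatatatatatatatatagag
The *NRT2.5* window held 2 matches to GAATC, and the *HRS1* window held 2 matches to GAATC and 1 to GAATATTC. The GAATATTC match is also a match to GNATATNC, the motif known as P1BS that is bound by the phosphate regulator PHR1. Of 27438 windows of the same length upstream of TAIR10.1 genes, 38.9% held GAATC, 10.3% held it at least 2 times, 0.86% held GAATATTC and 5.46% held GNATATNC. The windows of *NPF6.4* and *NPF5.7* held none of these letters. The sequence is that of the Columbia reference and was not read from the WS plants, and a match is a run of letters and not a site shown to be bound.

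*NRT2.5* was the one gene of the 4 that passed the test between spaceflight and ground control. Its level was 18.1, 8.41 and 11.97 FPKM in the 3 spaceflight leaf libraries, against 1.19, 1.44 and 2.11 FPKM in the ground control leaf libraries (FPKM counts fragments per length of transcript and per library size). Every spaceflight leaf library was above every ground control leaf library. The means were 12.8 ± 4.90 FPKM in spaceflight leaf and 1.58 ± 0.476 FPKM in ground control leaf (SD, n = 3 each), a ratio of 8.12. In these bulk samples, more cells that express a gene and more RNA per cell cannot be told apart. On the log2(FPKM + 1) scale, which understates changes of low genes, the difference was 2.38 (SE 0.33, 95% interval 1.67 to 3.09, limma, adjusted p = 0.0001632), the 28th highest of the 608 leaf genes. A call meant that the adjusted p was below 0.05 and the difference on this scale at least 2-fold, and 74.5% of the genes in the leaf table passed, as the table was chosen on this contrast.

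In root, *NRT2.5* was at or near 0 in both conditions. The spaceflight root libraries had 0.17, 0 and 0.04 FPKM and the ground control root libraries 0, 0.03 and 0 FPKM. At these levels no fold was given, and the depth behind a value listed at 0 is unknown. The root difference was 0.08 on the log2(FPKM + 1) scale (95% interval -0.15 to 0.31, limma over the genes of either table, adjusted p = 0.6285), in a fit that called 3.51% of genes. The spaceflight effect in leaf exceeded that in root by 2.30 (SE 0.34, 95% interval 1.56 to 3.03, limma interaction term, adjusted p = 0.0003143). That test passed for 73.5% of the 656 genes, most of which were listed for leaf alone. With *NRT2.5* near 0 in root, the term mostly restates the leaf difference that had chosen the gene, and it is a description.

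**Figure D1:**
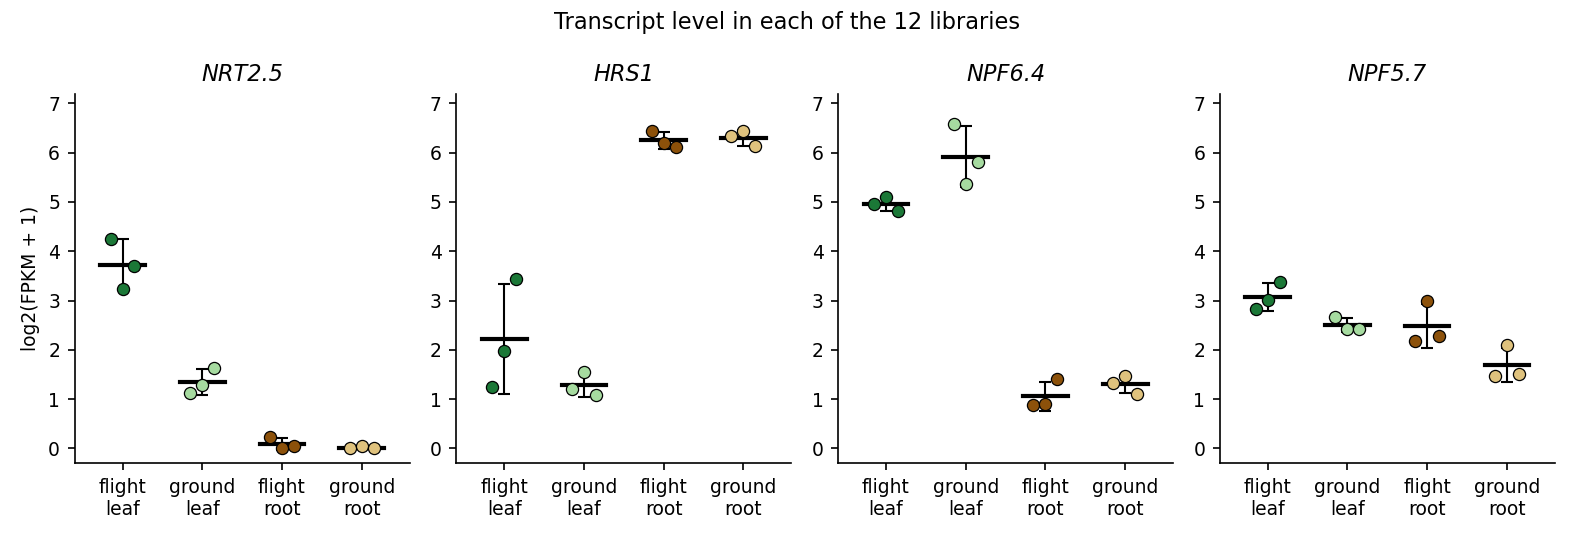
Level of *NRT2.5*, *HRS1*, *NPF6.4* and *NPF5.7* in each library as log2(FPKM + 1), with points for libraries, a horizontal line for the group mean and bars for the SD (n = 3). The spaceflight leaf points of *NRT2.5* (8.41 to 18.1 FPKM) lie above those of ground control leaf (1.19 to 2.11 FPKM), and *HRS1* is high in every root library.

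*HRS1* was foremost a root transcript in both conditions, and its leaf difference depended on single libraries. It had 85.5, 71.8 and 68.8 FPKM in spaceflight root and 80.3, 85.3 and 68.8 FPKM in ground control root. The ranges overlapped, and the means were 75.4 ± 8.93 FPKM in spaceflight root and 78.1 ± 8.44 FPKM in ground control root (SD, n = 3 each). The difference between conditions in root was -0.05 on the log2(FPKM + 1) scale (95% interval -0.37 to 0.27, limma, adjusted p = 0.8256), so a change of 2-fold in either direction lay outside the interval.

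In leaf, *HRS1* had 1.37, 2.96 and 9.83 FPKM in the spaceflight libraries, against 1.32, 1.93 and 1.13 FPKM in the ground control libraries. Spaceflight replicate 3 stood above all other leaf libraries, spaceflight replicate 1 lay among the ground control values, and the groups overlapped. The means were 4.72 ± 4.50 FPKM in spaceflight leaf and 1.46 ± 0.418 FPKM in ground control leaf (SD, n = 3 each), a ratio of 3.23. Without spaceflight leaf replicate 3 the spaceflight mean was 2.165 FPKM. The difference was 0.94 on the log2(FPKM + 1) scale (SE 0.46, 95% interval -0.06 to 1.93, limma, adjusted p = 0.06621) and did not pass, although the gene stands in the leaf table. With a pseudocount of 0.1 in place of 1 it was 1.22, above 2-fold, and still missed the adjusted p (limma, adjusted p = 0.05087). Without spaceflight leaf replicate 3 the difference was 0.33 (limma, adjusted p = 0.3323), and without spaceflight leaf replicate 1 it was 1.43 (limma, adjusted p = 0.007277). The difference between the leaf and root effects was 0.99 (95% interval -0.22 to 2.198, limma interaction term, adjusted p = 0.1179).

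Of 10 root marker genes, 1 was in the tables, *BGLU21*, a beta-glucosidase of roots, and it too was highest in leaf in spaceflight replicate 3. *BGLU21* had 0.82, 1.02 and 2.12 FPKM in spaceflight leaf, against 0.65, 0.34 and 0.42 FPKM in ground control leaf. Set against the root library of the same condition and number, its leaf level was 0.153%, 0.196% and 0.282% in spaceflight and 0.0671%, 0.0409% and 0.0551% in ground control. The leaf level of *HRS1* was 1.6%, 4.12% and 14.3% of its root level in spaceflight, and 1.64%, 2.26% and 1.64% in ground control. The share of *HRS1* in spaceflight leaf replicate 3 was thus many times that of *BGLU21*. The part of root RNA in the *HRS1* value of that library was not tested.

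*NPF6.4* was a leaf transcript, and each spaceflight leaf value lay below each ground control leaf value. It had 30.1, 33.2 and 27.3 FPKM in spaceflight leaf, against 94.96, 40.4 and 54.9 FPKM in ground control leaf. Ground control replicate 1 stood far above the other ground control libraries. The means were 30.2 ± 2.91 FPKM in spaceflight leaf and 63.4 ± 28.2 FPKM in ground control leaf (SD, n = 3 each), a ratio of 0.476. On the log2(FPKM + 1) scale the difference was -0.96 (SE 0.34, 95% interval -1.70 to -0.23, limma, adjusted p = 0.01758), which passed the adjusted p and fell just short of 2-fold, so it was not a call. Single libraries decided this. The difference was -0.63 (limma, adjusted p = 0.07262) without ground control replicate 1, and it passed as a call without ground control replicate 2 (-1.24), ground control replicate 3 (-1.02) or spaceflight replicate 2 (-1.03). It was -1.18 (limma, adjusted p = 0.01166) with libraries centred on the median of the 48 genes listed for root alone. Those genes were chosen for a spaceflight effect in root, which limits this check.

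Root levels of *NPF6.4* were 0.84, 0.87 and 1.64 FPKM in spaceflight and 1.52, 1.76 and 1.15 FPKM in ground control, with overlapping ranges. The root difference was -0.24 (95% interval -0.67 to 0.19, limma, adjusted p = 0.4207). The leaf effect minus the root effect was -0.72 (95% interval -1.56 to 0.11, limma interaction term, adjusted p = 0.1006), so the effects in the 2 organs were not shown to differ. With libraries centred on the median of all 656 genes that difference was -1.43 (limma, adjusted p = 0.02284). Of the 656 genes, 591 were listed for leaf alone. Such centring takes out part of the leaf effect that chose them, so it is no check.

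*NPF5.7*, a member of the NPF5 subfamily, was the one gene of the 4 listed for root, and its levels leaned the same way in both organs. Spaceflight root had 3.54, 6.95 and 3.85 FPKM, against 1.77, 3.29 and 1.84 FPKM in ground control root. The ranges did not overlap, and replicate 2 was highest in both conditions. The means were 4.78 ± 1.89 FPKM in spaceflight root and 2.30 ± 0.858 FPKM in ground control root (SD, n = 3 each), a ratio of 2.08. The difference on the log2(FPKM + 1) scale was 0.79 (SE 0.31, 95% interval 0.08 to 1.502, limma over the 65 root genes, adjusted p = 0.03822). It passed the adjusted p and not the 2-fold threshold, which it reached at 1.01 with a pseudocount of 0.1 in place of 1 (limma, adjusted p = 0.03548), in a table where 55.4% of genes were called. Over the 656 genes of either table the adjusted p of the same difference was 0.1061 (limma).

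In leaf, for which *NPF5.7* was not listed, it had 6.10, 7.02 and 9.40 FPKM in spaceflight and 5.34, 4.34 and 4.39 FPKM in ground control. The ranges did not overlap here either, and the ratio of means was 1.60. The share of all genes without overlap was not counted. The leaf difference was 0.57 (SE 0.23, 95% interval 0.03 to 1.098, limma over the genes of either table, adjusted p = 0.04672), below 2-fold, where 68.3% of genes were called. In that fit 472 of the 656 genes were higher in spaceflight leaf, with a median difference of 1.063. *NPF5.7* ranked 442 from the highest, so a higher level in spaceflight leaf is not particular to it. The adjusted p was above 0.05 with centred libraries (0.35, limma, adjusted p = 0.4207), with a replicate block (limma, adjusted p = 0.07889), with an intensity trend (limma, adjusted p = 0.07747), with a pseudocount of 0.1 (limma, adjusted p = 0.05548) and without any 1 library other than spaceflight leaf replicate 1, at 0.41 without spaceflight leaf replicate 3 and 0.65 without ground control leaf replicate 1. The leaf and root effects differed by -0.23 (95% interval -1.01 to 0.56, limma interaction term, adjusted p = 0.5636). This difference was -0.94 (limma, adjusted p = 0.02749) with libraries centred on all 656 genes. Most of these were listed for leaf alone, so that centring lowers the leaf effect by the choice of genes.

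Of 17 leaf marker genes, 3 were in the tables, the light-harvesting genes *LHCB1.2*, *LHCB2.2* and *LHCB4.2*. In root, *LHCB1.2* (1.04) and *LHCB2.2* (1.13) were called higher in spaceflight, and *LHCB4.2* (0.97) was just short of 2-fold. Their summed level was 223, 344.2 and 144.1 FPKM in spaceflight root, against 111.2, 107.3 and 102.2 FPKM in ground control root, highest in the spaceflight library in which *NPF5.7* was highest. In spaceflight, root levels of the 3 genes were 1.03% to 5.66% of those in the leaf library of the same number, and in ground control 0.485% to 0.998%. Leaf means in spaceflight and ground control were 7935 and 11310 FPKM for *LHCB1.2*, 1291 and 2387 FPKM for *LHCB2.2*, and 2059 and 2162 FPKM for *LHCB4.2*. A lower leaf level in spaceflight also raises a share, but not every library had one. *LHCB4.2* had 1201, 2446 and 2532 FPKM in spaceflight leaf replicates 1, 2 and 3. Ground control leaf had 2058, 2311 and 2118 FPKM, so its leaf level was lower in spaceflight replicate 1 alone. Root levels of *NPF5.7* were 58.0%, 99.0% and 41.0% of its leaf levels in spaceflight and 33.1%, 75.8% and 41.9% in ground control. The part of leaf RNA in the *NPF5.7* root value was not tested.

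**Figure D2:**
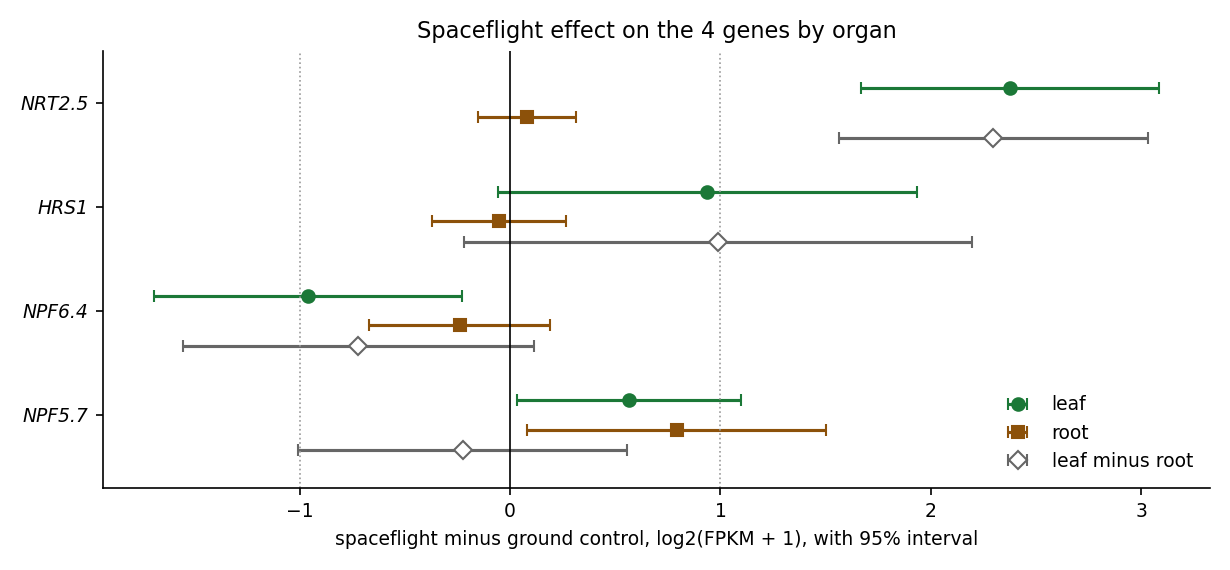
Spaceflight minus ground control difference of each gene in log2(FPKM + 1) with its 95% interval, in leaf (circles), in root (squares) and as leaf effect minus root effect (diamonds), with dotted lines at 2-fold. *NRT2.5* in leaf (2.38) is the one organ effect whose point lies beyond 2-fold, and the *NPF6.4* leaf point (-0.96) lies just inside it.

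Levels were also set side by side between organs within each condition. The authors' filter required a CPM over 5 in at least 3 libraries, and a gene high in 1 group or organ could pass it through that group alone, as *NRT2.5* through leaf, *NPF6.4* through leaf and *HRS1* through root. Their organ differences are therefore a description, given without a test. Between organs, 67.8% of the 656 genes were called in spaceflight and 69.1% in ground control, so an organ difference was common among them. *NRT2.5* was higher in leaf than in root by 3.63 in spaceflight (SE 0.28) and by 1.34 in ground control on the log2(FPKM + 1) scale. *NPF6.4* was higher in leaf by 3.90 in spaceflight (SE 0.23) and by 4.62 in ground control (SE 0.30). Its leaf mean was 27.1 times its root mean in spaceflight and 43.0 times in ground control.

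*HRS1* ran the other way, with a leaf minus root difference of -4.03 in spaceflight (SE 0.48) and -5.02 in ground control (SE 0.18). Its root mean was 16.0 times its leaf mean in spaceflight and 53.5 times in ground control, and without spaceflight leaf replicate 3 the spaceflight ratio was 34.8. *NPF5.7* was the gene least tied to an organ. Its leaf minus root difference was 0.59 in spaceflight (95% interval -0.05 to 1.22, limma, adjusted p = 0.08034), where the ranges overlapped. In ground control it was 0.81 (95% interval 0.33 to 1.295, limma, adjusted p = 0.007018), below 2-fold, and 1.69 (limma, adjusted p = 8.923e-05) with centred libraries. That centring used all 656 genes, whose median difference was -0.611, and so adds to the value by the choice of genes. In order of mean FPKM, which is per length, spaceflight leaf ran *NPF6.4*, *NRT2.5*, *NPF5.7*, *HRS1*, and the ranges of *NRT2.5* and *NPF5.7* overlapped, as did those of *NPF5.7* and *HRS1*. Ground control leaf ran *NPF6.4*, *NPF5.7*, *NRT2.5*, *HRS1*, with overlapping ranges of the last 2. Both root groups ran *HRS1*, *NPF5.7*, *NPF6.4*, *NRT2.5*, with no overlap between neighbours, although in ground control root the lowest *NPF5.7* value (1.77 FPKM) lay just above the highest *NPF6.4* value (1.76 FPKM).

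Few relatives of these genes could be followed, since only listed genes have values here. Of 52 *NPF* genes in the list used, the leaf table held 2, *NPF6.4* and *NPF5.2*, and the root table held *NPF5.7* alone. *NPF5.2* (PTR3, a peptide transporter) averaged 4.32 ± 1.18 FPKM in spaceflight leaf and 1.02 ± 0.270 FPKM in ground control leaf (SD, n = 3 each). It rose by 1.39 on the log2(FPKM + 1) scale (SE 0.29, limma, adjusted p = 0.001868), against the -0.96 of *NPF6.4* from the same family. Of 9 *NRT2* and *NRT3* genes, the leaf table held *NRT2.5* and *NRT3.1*, and both were called higher.

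*NRT3.1*, which encodes the partner protein of NRT2 transporters, averaged 17.0 ± 6.31 FPKM in spaceflight leaf and 7.28 ± 0.866 FPKM in ground control leaf (SD, n = 3 each). It rose in leaf by 1.06 (SE 0.33, limma, adjusted p = 0.01008), close to the 2-fold threshold, and the call ended with centred libraries (0.84) and without spaceflight leaf replicate 1 (0.83), spaceflight leaf replicate 3 (0.97) or ground control leaf replicate 2 (just under 1.00). In root, where it was more abundant than in leaf, it averaged 51.1 ± 3.21 FPKM in spaceflight and 53.3 ± 6.39 FPKM in ground control. Across the spaceflight leaf libraries *NRT3.1* and *NRT2.5* had the same order, highest in replicate 1 and lowest in replicate 2. Their log2 differences from the ground control leaf mean were 2.90, 1.88 and 2.35 for *NRT2.5* and 1.51, 0.43 and 1.23 for *NRT3.1* in spaceflight leaf replicates 1, 2 and 3. Of the 608 leaf genes, 25.5% had their highest spaceflight leaf value in replicate 1.

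Of 7 genes of the *HRS1* and *HHO* family, the leaf table held *HRS1* and *HHO3* (AT1G25550), a homologue of *HRS1*. *HHO3* averaged 115.7 ± 48.7 FPKM in spaceflight leaf and 43.1 ± 7.73 FPKM in ground control leaf (SD, n = 3 each), without overlap. It rose by 1.33 (SE 0.35, limma, adjusted p = 0.004958). Its spaceflight leaf libraries had the order of *HRS1*, with log2 differences from the ground control leaf mean of 0.65, 1.41 and 1.92 for *HHO3* and -0.04, 0.70 and 2.15 for *HRS1* in replicates 1, 2 and 3. Replicate 3 was the highest spaceflight leaf library for 61.2% of the 608 leaf genes, so this is not particular to *HRS1* and *HHO3*. Unlike *HRS1*, *HHO3* in root was of the same order as in leaf, at 72.9 ± 8.08 FPKM in spaceflight and 68.3 ± 8.33 FPKM in ground control.

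The leaf effect exceeded the root effect by 1.44 for *NPF5.2* (limma interaction term, adjusted p = 0.001897), by 1.12 for *NRT3.1* (adjusted p = 0.01407) and by 1.23 for *HHO3* (adjusted p = 0.0151). With centred libraries the last 2 no longer passed, at 0.40 for *NRT3.1* (adjusted p = 0.4129) and 0.52 for *HHO3* (adjusted p = 0.192). Most genes of that centring were listed for leaf alone. It takes out part of their leaf effect, so this loss decides nothing. In their upstream windows, *NPF5.2*, *NRT3.1* and *HHO3* each held 1 match to GAATC, and *HHO3* also held 1 to GNATATNC.

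Further nitrogen genes were counted in 4 more lists. Of 17 nitrate signalling genes, 3 were in the leaf table, and all 3 rose, namely *BT2* by 4.36, *BZIP1* by 1.98 and *BT1* by 1.55 on the log2(FPKM + 1) scale (BT1 and BT2 are BTB-TAZ scaffold proteins, and bZIP1 is a transcription factor of nitrogen and sugar signalling). *BT2* averaged 133.8 ± 78.1 FPKM in spaceflight leaf and 5.203 ± 2.53 FPKM in ground control leaf (SD, n = 3 each). Of 16 assimilation genes, 5 were in the leaf table. *NIA1* (nitrate reductase) rose by 1.28, *UPM1* (an enzyme of the siroheme cofactor of nitrite reductase) by 1.21, *GLN1-4* (glutamine synthetase) by 1.51 and *GDH2* (glutamate dehydrogenase) by 1.39, and *ASN1* (asparagine synthetase) differed by 0.84 without passing (limma, adjusted p = 0.08337). *ASN1* had 0.36 without spaceflight leaf replicate 3, and passed without spaceflight leaf replicate 1 (1.25, limma, adjusted p = 0.01729) or ground control leaf replicate 3 (1.18, limma, adjusted p = 0.03425).

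Of 11 ammonium transporter and anion channel genes, 3 were in the leaf table. The ammonium transporter gene *AMT1-1* rose by 1.19, *SLAH3*, which encodes a nitrate-permeable anion channel, fell by 1.15, and *AMT1-2* differed by -0.89, short of 2-fold. With centred libraries *AMT1-1* (0.97) and *UPM1* (0.99) were below 2-fold and *AMT1-2* (-1.11) passed. Single libraries decided *AMT1-2*, which had -0.39 (limma, adjusted p = 0.1923) without ground control leaf replicate 1 and passed without ground control leaf replicate 2 (-1.17) or 3 (-1.12). None of 15 phosphate starvation genes was in either table, so their levels were not analysed here. Over the 7 lists, 127 genes in all, the leaf table held 17 (13.4%). The 608 genes of the leaf table are 2.22% of the 27438 genes with an upstream window in TAIR10.1, but the lists were chosen with earlier results known and nothing is read from this. Among the 17 genes 12 rose, 1 fell and 4 missed the call, with a median log2 difference of 1.28. Without *NRT2.5*, *NPF6.4* and *HRS1* there were 14, with 11 that rose, 1 that fell and 2 that missed the call. In the leaf table as a whole 353 genes were higher, 100 lower and 155 not called (244 higher and 137 lower with centred libraries), with a median of 1.095, so the share called among the nitrogen genes was near that of the table. The lists held no gene of the root table other than *NPF5.7*.

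**Figure D3:**
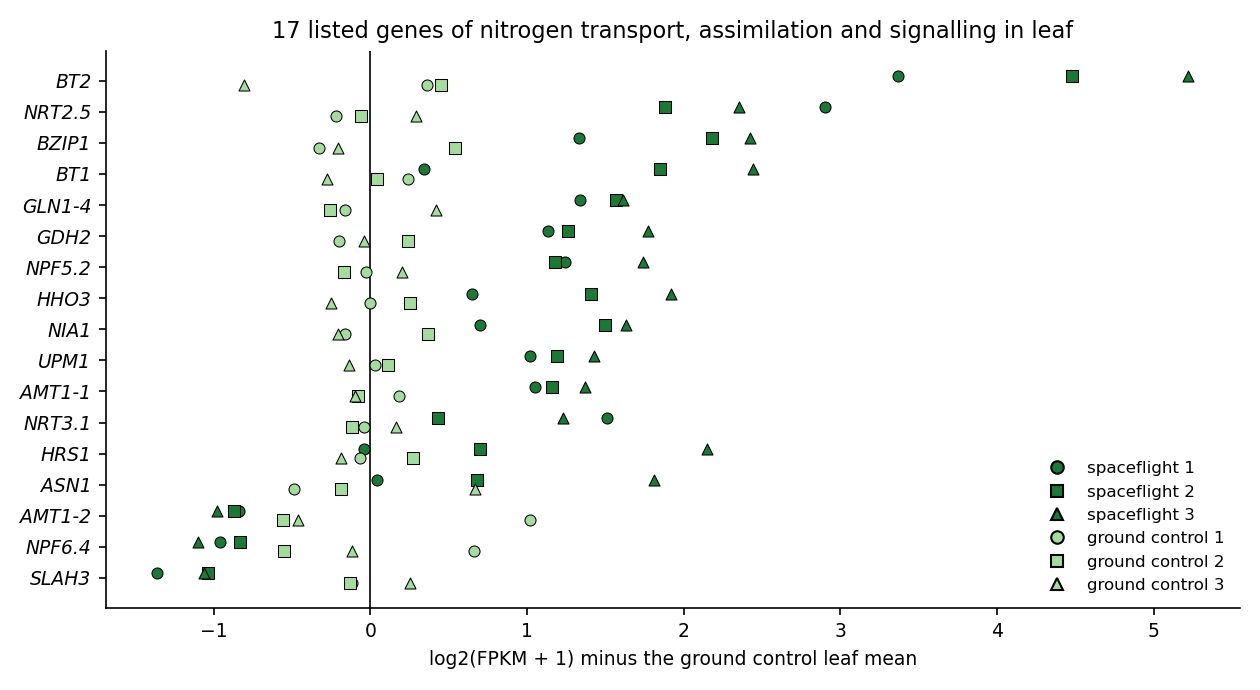
Log2(FPKM + 1) of each leaf library minus the ground control leaf mean for the 17 genes of the 7 lists in the leaf table, with dark symbols for spaceflight, light symbols for ground control and a shape for each replicate number. *BT2* spans 3.37 to 5.22 in spaceflight leaf, *HRS1* -0.04 to 2.15, and all 3 spaceflight points of *NPF6.4* lie below its ground control points.

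The spaceflight leaf libraries did not move genes evenly, among the nitrogen genes or among the leaf genes as a whole. Of these 17 genes and *NPF5.7*, 13 had their highest spaceflight leaf value in replicate 3, 2 in replicate 2 and 3 in replicate 1. Over the 608 leaf genes the shares were 61.2% in replicate 3, 13.3% in replicate 2 and 25.5% in replicate 1, so replicate 3 was most often highest there too. *HRS1* and *NPF5.7* were among those highest in replicate 3, and *NRT2.5* was highest in replicate 1.

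Genes whose levels ran most like those of each gene were taken from both tables by Pearson's r of log2(FPKM + 1), as a description. Libraries of 1 plate and 1 organ are shared by every pair, and r over 12 libraries is set largely by the organ difference. For *NRT2.5* the highest r over 12 libraries was with AT5G03350 (0.983), AT4G34790 (0.978) and *ARD1* (0.977). Over the 6 leaf libraries it was with *UCC2* (0.994), AT1G78450 (0.991) and *EXL7* (0.989). For *NPF6.4* it was *GLK1* (0.992), AT5G58770 (0.991) and *BHLH72* (0.990) over 12 libraries, and AT5G58770 (0.994), AT5G17780 (0.986) and *ERDJ3A* (0.982) over leaf. *GLK1*, a transcription factor of chloroplast development, had 45.0 ± 1.97 FPKM in spaceflight leaf and 120.5 ± 15.4 FPKM in ground control leaf (SD, n = 3 each).

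For *HRS1* the highest r over 12 libraries was with *CML19* (0.994), *OSM34* (0.994) and AT1G73810 (0.991), and over leaf with *ABCG40* (0.956), *CYP710A1* (0.945) and *CML12* (0.943). *OSM34*, an osmotin-like gene, had 0.68, 1.01 and 18.9 FPKM in spaceflight leaf, against 0.23, 0.29 and 0.88 FPKM in ground control leaf, so it too was highest in spaceflight leaf replicate 3. In root it had 425.1 to 639.6 FPKM in spaceflight and 383.2 to 435.04 FPKM in ground control. *CML19*, a calmodulin-like gene, had 0.46, 1.07 and 2.74 FPKM in spaceflight leaf and 43.0 to 49.2 FPKM in spaceflight root. AT1G73810 and *CYP710A1* were likewise higher in root than in leaf and highest among leaf libraries in spaceflight replicate 3. *ABCG40*, a transporter of abscisic acid, had 2.01, 3.12 and 12.8 FPKM in spaceflight leaf, against 0.67, 1.02 and 0.43 FPKM in ground control leaf. *ABCG40* was at or under 0.39 FPKM in all root libraries. *CML12* averaged 597.9 FPKM in spaceflight leaf and 272.4 FPKM in ground control leaf, against 60.6 and 48.8 FPKM in the same order in root. The most similar genes thus included both root-rich genes and genes lower in root than in leaf. They were picked by r with *HRS1*, and 61.2% of the 608 leaf genes had their highest spaceflight leaf value in replicate 3. The part of root RNA in these leaf values was not tested.

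For *NPF5.7* the highest r over 12 libraries was with AT1G78830 (0.904), *ERF107* (0.865) and *CW9* (0.849), and over the 6 root libraries with AT1G78830 (0.988), *CW9* (0.986) and *CYP94C1* (0.985). AT1G78830 had 56.4, 89.4 and 68.3 FPKM in spaceflight root, against 39.7, 55.9 and 40.8 FPKM in ground control root. Replicate 2 was highest in each condition, as for *NPF5.7*. *HRS1* and *NPF6.4* had an r of -0.975 over the 12 libraries, which reflects that the first is high in root and the other in leaf.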

How the data were processed

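RNA-seq of 12 libraries was used, 3 each of spaceflight leaf, ground control leaf, spaceflight root and ground control root. Per the labels and the study's methods, the authors ran FastQC and Trimmomatic on the reads, aligned to TAIR10 by STAR and estimated levels by RSEM, with versions not given in the sources used here. Both deposited tables hold FPKM per library and the authors' mean CPM per group. The unit FPKM was inferred, since mean CPM divided by the library values increased with gene length (Spearman's rho 0.793 across 606 genes of the leaf table, 0.755 across 63 genes of the root table). The mean CPM was used for nothing else. The authors filtered on CPM over 5 in 3 or more libraries and listed the genes whose edgeR FDR was below 0.05 with a change of 2-fold or more. The columns of the authors' fold changes, p-values and FDR were not used.

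No counts were used, so depth is unknown and no counting interval can be given. The deposited FPKM were put on the log2(FPKM + 1) scale and compared by limma 3.58.1 in R 4.3.3 (two-sided, Benjamini-Hochberg adjustment over all genes of the fit), within organ as in the study, between organs within condition, and as an interaction over the 12 libraries. Calls required adjusted p below 0.05 together with 2-fold, and for the interaction the adjusted p alone. Each limma step was tested on simulated data. Named genes were the 4 genes, the 3 most like each over 12 libraries and over the 6 of the organ it is listed for, and each gene of the 7 nitrogen and phosphate lists in either table. NRT3.1, NPF5.2 and HHO3 are described further as family members of the 4. OSM34, CML19, ABCG40, CML12, GLK1 and AT1G78830 had their values given after these were seen. The genes and lists were chosen with earlier results of these data known. AT1G25550 has no name in the deposited tables and was named from the paper's supplement. Gene positions and upstream windows are from RefSeq TAIR10.1, and the deposited files give no coordinates. Alternatives were a pseudocount of 0.1, a filter at a mean of 1 FPKM, an intensity trend in limma, centring of each library on its median, a replicate block and leaving out each library. Groups were taken from the sample titles, as another label names the other organ for some libraries. The remaining steps ran in Python 3.11.15 (pandas 2.3.3, numpy 2.4.6, scipy 1.17.1, matplotlib 3.10.9).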

Additional observations from a re-analysis of the deposited data

Results flagged for a closer look

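Of 7 genes, the 4 described and their family members *NPF5.2*, *NRT3.1* and *HHO3*, 4 had a spaceflight effect that differed between leaf and root by limma's interaction term over the 12 libraries, a test that 73.5% of the 656 genes passed. The leaf effect minus the root effect on the log2(FPKM + 1) scale was 2.30 for *NRT2.5* (adjusted p = 0.0003143), 1.44 for *NPF5.2* (adjusted p = 0.001897), 1.23 for *HHO3* (adjusted p = 0.0151) and 1.12 for *NRT3.1* (adjusted p = 0.01407). With centred libraries *HHO3* (0.52, limma, adjusted p = 0.192) and *NRT3.1* (0.40, limma, adjusted p = 0.4129) no longer passed. That centring used all 656 genes, most of them listed for leaf alone, so the loss decides nothing. All 4 genes were listed by the authors for leaf and not for root, so a larger leaf effect had already chosen them. The term of *NRT2.5*, which was near 0 in root, mostly restates its leaf difference.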

How the results depend on the processing

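Direction and call of the *NRT2.5* difference in leaf (2.11 to 2.62 with a library left out) and of its interaction (2.03 to 2.54) held under every alternative run. Leave-one-out values ran from -1.24 to -0.63 for *NPF6.4* in leaf, 0.33 to 1.43 for *HRS1* in leaf, -0.15 to 0.013 for *HRS1* in root (0.013 without ground control root replicate 2 and 0.0098 without spaceflight root replicate 3, with the sign turned) and 0.70 to 1.02 for *NPF5.7* between organs in ground control. For the interaction they ran from 0.38 to 1.48 for *HRS1* (past the threshold without spaceflight leaf replicate 1), -1.0 to -0.39 for *NPF6.4* (past it without ground control leaf replicate 2) and -0.43 to 0.028 for *NPF5.7* (0.028 without spaceflight root replicate 2). Genes called in root numbered 18 to 41 over the root table (36 with all libraries, 18 without spaceflight root replicate 2) and 0 to 44 over either table (23 with all, 44 without spaceflight root replicate 3, and 0 once ground control root replicate 1 or 3 was left out, where limma gave 137 and 164 genes an unadjusted p under 0.05). With a pseudocount of 0.1 the root table gave 57 calls, *NPF5.7* in root 1.01 and *NPF5.7* between organs in ground control 1.05. Fitted over the genes of either table, root gave 23 calls. Centring each library on the median of genes not listed for the organ compared (for contrasts between organs, of all 656 genes) shifted the differences by -0.22 in leaf, -0.0195 in root, 0.166 between organs in spaceflight, 0.879 between organs in ground control and -0.712 for the interaction. It gave -1.18 for *NPF6.4* in leaf, 1.69 for *NPF5.7* between organs in ground control, and for the interaction -1.43 for *NPF6.4*, -0.94 for *NPF5.7* and 279 calls (101 positive and 178 negative) against 482 (355 and 127). In the leaf table it gave 244 higher and 137 lower calls. For the leaf fits the centring set was the 48 genes listed for root alone, *NPF5.7* among them. For the root fits it was the 591 genes listed for leaf alone. Both sets were chosen for a spaceflight effect in the other organ, so centring on them is a limited check. For the organ and interaction fits the centring set was all 656 genes, of which 591 were listed for leaf alone. The median difference of the 656 genes was -0.611 between organs in ground control and 0.908 for the interaction. Centring takes out this shared difference, so the centred organ and interaction values are no check on the calls. Any other cause of the shifts was not tested. The depth behind low values such as *NRT2.5* in root is unknown.

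The replicate numbers were not taken as pairs in the main fits. Leaf and root libraries carry the same condition and number, but the labels do not say that a number is a plate. The deviations of same-numbered leaf and root libraries correlated at 0.0385, 0.0863 and -0.0179 in spaceflight and 0.0778, 0.45 and 0.31 in ground control. Libraries of unlike number were not set beside them, so these values do not decide whether a number is a plate. Between organs and for the interaction, the replicate block joined leaf and root libraries of the same condition and number. Within an organ, the replicate block joined spaceflight and ground control libraries of the same number. These came from separate plates, so the block within an organ is an arbitrary pairing and its adjusted p values decide nothing. With the block the leaf difference was 2.38 for *NRT2.5* and 0.94 for *HRS1* (limma, adjusted p = 0.02969, under 2-fold on the log2(FPKM + 1) scale). The leaf table gave 454 calls and the root fit of 65 genes 37 calls, and no call of the 4 genes changed.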
